A study of Homo sapiens with 34 samples.

Results

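Of 19970 protein-coding genes on chromosomes 1 to 22 and X, 1119 (5.60%) had no peak of any of 5 histone marks within 1 kb of any annotated start site, in KELLY neuroblastoma cells with or without knockdown of RUNX1T1. These unmarked promoters were selected on the peak calls themselves: a gene was kept when none of 30 peak lists held an interval closer than that distance to any of its GENCODE start sites (hg38). KELLY is a human neuroblastoma cell line with amplified MYCN, and the cells carried a hairpin RNA construct, switched on by doxycycline, that targets RUNX1T1, a transcriptional co-repressor. Chromatin was immunoprecipitated after 72 h with antibodies to H3K4me1, H3K4me2, H3K4me3, H3K27ac and H3K27me3, and the 30 lists are 3 replicates of each mark from cells given DMSO (the hairpin not induced) and 3 from cells given doxycycline (the hairpin induced). Both groups carried the inducible hairpin, so doxycycline itself and the loss of RUNX1T1 cannot be told apart, and the labels do not say whether replicates came from separate cultures. Each list rested on 57.1 M to 85.2 M filtered reads. The input libraries used for calling were smaller with doxycycline (57.0 M to 63.4 M reads) than with DMSO (74.5 M to 81.5 M), so the depth of the control and the treatment cannot be told apart. MACS2 estimated fragments of 105 to 112 bases in 3 H3K27me3 libraries (DMSO replicates 2 and 3, doxycycline replicate 3) and of over 200 bases in all others. Without those 3 lists 1185 genes were unmarked, the 1119 and 66 more.

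Promoters in use carry H3K4me3 and H3K27ac around the start site, with H3K4me1 farther out and at enhancers, while H3K27me3 is laid down by Polycomb repressive complex 2 over genes held silent. A promoter with none of these is known from genes that a lineage does not use, many of which lie in tandem arrays of lineage-specific families, and from promoters whose CpG sites are methylated. The genes that define the cells were far from this state: all 17 adrenergic neuroblastoma genes examined, among them HAND2, GATA3, TH and DBH, had H3K4me3 and H3K27ac within 1 kb of a start in 6 of 6 libraries each, and none had H3K27me3 in all 6. RUNX1T1 itself carried H3K4me1, H3K4me2, H3K4me3 and H3K27ac in 6 of 6 libraries each and H3K27me3 in 0 of 6. Peak lists hold no transcript levels, so the knockdown could not be checked in them.

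The promoters of the unmarked genes can be read directly. The sequences below run 5′ to 3′ from 250 bases before to 50 bases after the canonical start on the gene's strand in hg38, with each CG dinucleotide in capitals. They show the member farthest from any peak in each of the 5 listed families with the most unmarked genes: the olfactory receptor OR14J1 (chr6:29301451-29301750, plus strand), the testis gene VCX3B (chrX:8464580-8464879, plus), the clustered protocadherin PCDHA11 (chr5:140868707-140869006, plus), the orphan receptor GPR82 (chrX:41723931-41724230, plus) and the bitter taste receptor TAS2R46 (chr12:11062245-11062544, minus). They hold between 1 and 7 CG dinucleotides in 300 bases.
OR14J1: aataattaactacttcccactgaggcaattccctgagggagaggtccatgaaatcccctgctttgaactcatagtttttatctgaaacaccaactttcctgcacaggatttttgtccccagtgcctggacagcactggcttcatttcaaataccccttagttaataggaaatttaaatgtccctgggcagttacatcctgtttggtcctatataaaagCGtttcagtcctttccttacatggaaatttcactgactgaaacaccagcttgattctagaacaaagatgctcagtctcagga
VCX3B: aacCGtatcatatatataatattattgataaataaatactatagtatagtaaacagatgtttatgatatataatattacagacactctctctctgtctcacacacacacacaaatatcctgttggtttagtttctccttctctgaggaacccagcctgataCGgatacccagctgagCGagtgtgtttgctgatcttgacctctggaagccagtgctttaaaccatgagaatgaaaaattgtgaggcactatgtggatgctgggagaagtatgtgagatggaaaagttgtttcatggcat
PCDHA11: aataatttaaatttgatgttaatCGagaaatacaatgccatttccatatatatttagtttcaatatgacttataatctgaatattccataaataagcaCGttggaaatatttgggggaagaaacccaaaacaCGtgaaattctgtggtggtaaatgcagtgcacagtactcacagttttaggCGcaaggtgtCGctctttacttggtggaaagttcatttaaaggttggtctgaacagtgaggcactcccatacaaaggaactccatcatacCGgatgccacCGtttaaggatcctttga
GPR82: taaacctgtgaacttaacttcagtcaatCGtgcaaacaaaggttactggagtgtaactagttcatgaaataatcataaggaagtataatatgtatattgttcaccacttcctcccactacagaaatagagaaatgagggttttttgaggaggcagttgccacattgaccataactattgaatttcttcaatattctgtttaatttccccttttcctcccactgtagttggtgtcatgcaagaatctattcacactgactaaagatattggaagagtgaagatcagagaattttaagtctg
TAS2R46: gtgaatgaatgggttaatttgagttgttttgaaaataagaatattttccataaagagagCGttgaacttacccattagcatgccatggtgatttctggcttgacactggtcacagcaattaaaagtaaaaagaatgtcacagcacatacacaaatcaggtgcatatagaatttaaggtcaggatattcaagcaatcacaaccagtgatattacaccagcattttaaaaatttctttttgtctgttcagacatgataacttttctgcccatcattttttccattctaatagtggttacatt

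CSN2 (chr4:69965679-69965978, minus strand), which encodes the milk protein beta-casein, was added after the values were seen, as a tissue gene outside the receptor families. Its promoter has 2 CG dinucleotides and a TATAAA 28 bases before the start.
CSN2: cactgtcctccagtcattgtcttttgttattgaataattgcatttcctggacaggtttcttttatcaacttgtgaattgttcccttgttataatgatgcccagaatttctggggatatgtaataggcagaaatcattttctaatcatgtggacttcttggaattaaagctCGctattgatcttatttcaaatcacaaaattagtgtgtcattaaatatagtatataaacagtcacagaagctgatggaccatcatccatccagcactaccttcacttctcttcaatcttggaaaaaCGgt

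The plot of genes by list number shows genes at every number from 0 to 30, gathered at a few of them. The most, 8698, were marked in 24 lists, followed by 1180 in 23 lists, 1133 in 6 lists and the 1119 in 0 lists, while 348 were marked in 1 list and the fewest, 115, in 11 lists. Of the 1133 genes, 1007 (88.9%) carried exactly the 6 lists of H3K27me3, and of the 8698 genes, 7698 (88.5%) carried all lists of the other 4 marks. In any number of lists, 1878 genes carried H3K27me3 and no other mark. By contrast, 320 genes were marked by H3K4me1 alone, 79 by H3K27ac alone, 6 by H3K4me2 alone and 1 by H3K4me3 alone. Taken singly, H3K27me3 was missing in all 6 of its lists at 12869 genes (64.4%), H3K27ac at 5696 (28.5%), H3K4me3 at 5050 (25.3%), H3K4me2 at 3932 (19.7%) and H3K4me1 at 3525 (17.7%).

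**Figure D1:**
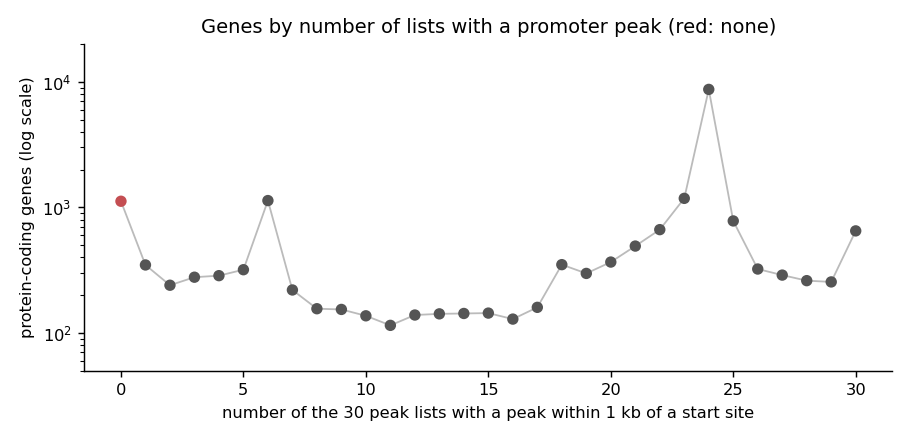
Number of protein-coding genes (vertical axis, log scale) by the number of the 30 peak lists with a peak within 1 kb of a start site (horizontal axis); the red point is the unmarked group. The 1119 unmarked genes stand above the 348 genes marked in 1 list, and the largest groups are those marked in 24 lists (8698 genes) and in 23 lists (1180 genes).

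The edge of the group was set by weak peaks of H3K27me3 and H3K4me1. Of the 348 genes marked in a single list, 187 (53.7%) were marked by H3K27me3, 114 (32.8%) by H3K4me1, 42 (12.1%) by H3K27ac, 5 (1.44%) by H3K4me2 and 0 by H3K4me3. The single list was H3K27me3 in doxycycline replicate 1 for 75 of them (21.6%) and H3K4me1 in DMSO replicate 1 for 43 (12.4%). In those lists the strongest peak of each gene reached, at the median, 2.21 and 2.19 times the input. The H3K4me2 and H3K4me3 lists were called at p 1e-05 and those of the other marks at q 0.05. The counts by mark are therefore not on equal terms. Just outside the 1 kb limit lay LEAP2, DUSP29 and PTPRQ, at 1005, 1006 and 1007 bases from the nearest peak, followed by BNIP5 and ZGLP1 at 1014 bases each. Just inside it, with a peak in 1 list only, lay OR5H14 (998 bases), OR5AC2 (992), PRSS54 (988), SYNPO2L (980) and PLEKHG7 (969).

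The lists of a single treatment gave somewhat larger sets, which contain the 1119 genes by construction. In the 15 DMSO lists 1349 genes (6.76%) were unmarked, and 1119 of them (83%, exact 95% interval 80.8 to 84.9%) were also unmarked in the 15 doxycycline lists. In the 15 doxycycline lists 1411 genes (7.07%) were unmarked, of which 79.3% (77.1 to 81.4%) were also unmarked in DMSO. These intervals cover counting error only.

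Families used by a single sense organ, tissue or cell lineage held many of the unmarked genes. The 49 families listed by gene symbol covered 399 of the 1119 (35.7%) and 3092 of all genes (15.5%). Within the families 12.9% of genes were unmarked, against 4.27% of the genes outside them. The families were chosen with earlier results of these data known, so this difference is partly built in, and olfactory receptors alone held 153 of the 399. In 40 families at least 1 gene was unmarked. The 9 families with 0 were the ribosomal proteins (0 of 92), C-type lectins, CEACAM and pregnancy-specific glycoproteins, USP17-like deubiquitinases, WAP-domain and BPI-fold proteins, cystatins, growth hormone and prolactin, matrix metalloproteinases and myosin heavy chains. Transporters and zinc fingers lay below the overall 5.60%, with 12 of 368 SLC genes (3.26%) and 5 of 509 ZNF genes (0.982%).

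**Figure D2:**
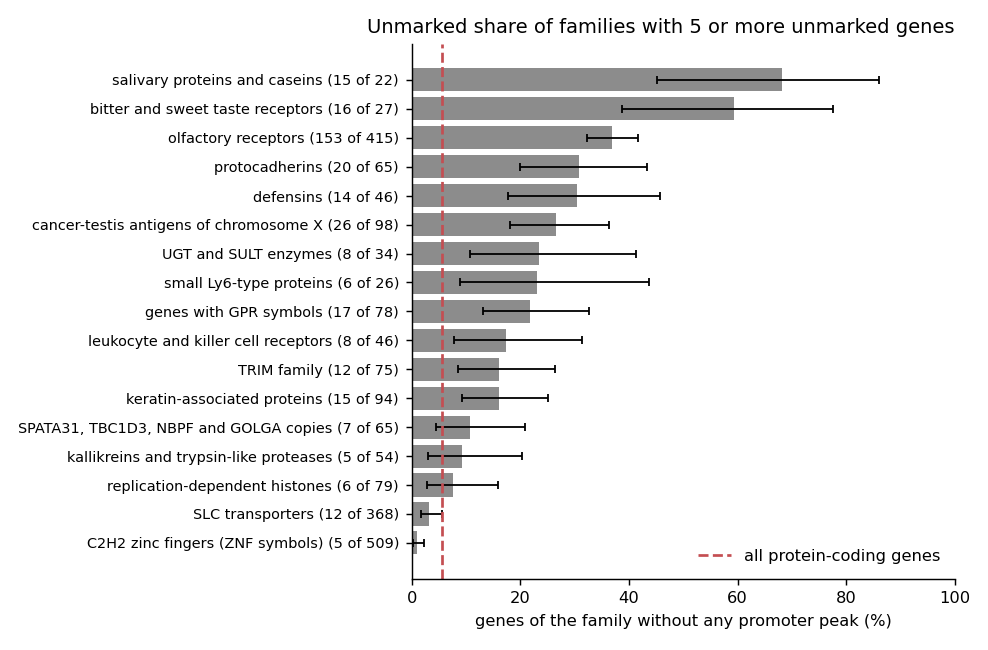
Percentage of each family's genes without a peak in any list (bars) for families with 5 or more unmarked genes, with exact 95% binomial intervals (lines) and the percentage over all protein-coding genes (dashed line, 5.60%). Salivary proteins and caseins (68.2%) and taste receptors (59.3%, or 23.1% of those with a unique window) have the highest shares, and the intervals cover counting error only, since genes of a family are related in sequence.

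Olfactory receptors, the odorant-detecting receptors of the nasal epithelium, were the largest family, with 153 of 415 genes unmarked (36.9%), and 112 of 353 (31.7%) among those with a promoter window mostly found once in the assembly. Of the other 262, 245 were marked by H3K27me3 and nothing else, so that 17 olfactory receptors had a mark other than H3K27me3. H3K4me1 was found at 15 of the 415 in any list, H3K4me2 at 4, H3K27ac at 2 and H3K4me3 at 1. The gene with H3K4me3 was OR1F1 on chromosome 16, marked in 26 lists; OR9A4 and OR6S1, marked in 8 lists each, came next. H3K27me3 lay at 202, 108 and 144 olfactory receptors in DMSO replicates 1, 2 and 3 and at 228, 186 and 144 in the doxycycline replicates, and the ranges of the treatments overlap. As shares of the family these were 48.7, 26.0 and 34.7% and 54.9, 44.8 and 34.7%, beside 29, 22.8 and 26.1% and 31.1, 27.7 and 24.8% of all genes in the same libraries. The family lay above all genes in each of the 6 libraries, by least in DMSO replicate 2. By chromosome the unmarked share ran from 17 of 19 on chromosome 6 and 99 of 178 on chromosome 11 to 10 of 65 on chromosome 1, 1 of 17 on chromosome 7, and 0 of 14 on chromosome 17 and 0 of 20 on chromosome 19. On chromosome 6 the unmarked ones from OR2W1 to OR2H2 had 86.7 to 100% of their windows copied elsewhere in the assembly. OR2B2 and OR2B6 had 0%. With a stricter −log10 q of at least 3 256 olfactory receptors were unmarked (61.7%), beside 9.98% of all genes.

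Taste receptors, salivary proteins and caseins, defensins and keratin-associated proteins, picked for their many unmarked genes, ranged from 16.0 to 68.2% unmarked. Some other listed chemosensory and secretory families lay below this range, among them vomeronasal and trace amine receptors, secretoglobins and lipocalins. Taste receptors were unmarked at 16 of 27 genes (59.3%), a share above that of the olfactory receptors, but at 3 of 13 (23.1%) among those with a unique window, a share below theirs. The farthest unmarked one from any peak was TAS2R46 (chr12:11061365-11062294), 105 kb away. The marked ones included TAS1R1, a subunit of the umami receptor, in 28 lists, TAS2R14 in 23 and TAS2R1 in 10. Of the salivary proteins and caseins 15 of 22 were unmarked (68.2%), the farthest being the proline-rich protein gene PRR4 at 47.1 kb (chr12:10845849-10849475), while PRB2 and PRH1 were marked in 24 and 23 lists and the enamel gene ENAM in 4. In defensins, antimicrobial peptides of epithelia and leukocytes, 14 of 46 genes were unmarked (30.4%), 28 carried H3K27me3 only, and 4 had another mark. DEFB113 (chr6:49968677-49969625) was the farthest defensin, 25.2 kb from any peak, and DEFB124, DEFB136 and DEFB132 were the most widely marked, in 18, 9 and 9 lists. Keratin-associated proteins of the hair shaft differed in their makeup: 15 of 94 were unmarked (16.0%) and 75 carried H3K27me3 alone. Every unmarked keratin-associated gene lay within 6.19 kb of a peak, the distance of KRTAP5-2 (chr11:1597177-1598294), whose window was also 100% copied. KRTAP10-6, KRTAP10-9 and KRTAP10-12 were marked in 11, 10 and 8 lists.

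Genes of the male germ line on chromosome X formed another large group. Cancer-testis antigens, proteins made in male germ cells and reactivated in some tumours, were unmarked at 26 of 98 genes (26.5%), or at 21 of the 47 with a unique window (44.7%), and VCX3B (chrX:8464830-8466510) was the farthest, 126 kb from a peak. Of the 72 marked ones 51 carried H3K27me3 only, beside 1878 of all 19970 genes. H3K4me3 was found at 20 of the 98 in any list, beside 74.7% of all genes. The most widely marked were GAGE12J in 27 lists, MAGEA10 in 25 and MAGEA2B in 24, all with H3K4me3 in 6 of 6 libraries. MAGEB was the only symbol stem, of 283 shared by 10 or more genes, with at least 80% of its genes unmarked, 10 of 11. The unmarked MAGEB genes lay between 2.75 kb (MAGEB5) and 92.1 kb (MAGEB16) from a peak, and MAGEB3 was the marked one. Stems with over 50% unmarked were SPDYE (12 of 19), PCDHA (8 of 13, without the C-type genes), TAS (16 of 27), PCDHGA (7 of 12) and HLA (10 of 19).

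Protocadherins, neuronal adhesion proteins of which the clustered ones are used singly by choice of an alternative first exon, were divided by cluster. All 12 protocadherins outside the clusters were marked, including PCDH8 in 27 lists, PCDH10 in 26 and PCDH15 in 25. In the alpha cluster 8 of 15 were unmarked, in gamma A 7 of 12, in gamma B 2 of 7, in gamma C 1 of 3, and in beta 2 of 16. PCDHA9 to PCDHA13 were unmarked in a row, with PCDHA11 (chr5:140868183-141012347) the farthest at 15.6 kb from any peak. The alpha and gamma genes overlap one another through their shared constant exons, so their annotated starts, not their bodies, separate them. Genes with GPR symbols, which name G protein-coupled receptors and in GPR15LG the ligand of one, were unmarked at 17 of 78 (21.8%), GPR15LG included, with GPR82 (chrX:41724181-41730130) the farthest at 77.1 kb. GPR34 beside it lay 41.9 kb from a peak, and GPR183, which guides B lymphocytes, 2.84 kb. GPR176 and GPR161 were marked in 30 and 27 lists.

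Smaller families are named here after their values were seen, and their shares are to be read beside the 5.60% of all genes. HOXD4 was the only unmarked one of 39 HOX genes (2.56%), 1.09 kb from a peak. PSMA8, a proteasome subunit of meiotic cells, and PSMB8, an interferon-inducible subunit, were the unmarked 2 of 48 proteasome genes (4.17%), at 24.7 and 5.34 kb. Of 79 replication-dependent histone genes 6 were unmarked (7.59%): H3-4, H2AC1 and H2BC1, known from testis, at 2.71, 2.77 and 2.99 kb, and H4C6, H3C8 and H2BC10 at 1.33, 10.9 and 9.48 kb. Of 17 type I interferons 4 were unmarked (23.5%), IFNB1, IFNA8, IFNE and IFNK, and of 10 Toll-like receptors 3, TLR10, TLR4 and TLR8. Of 19 HLA genes 10 had no peak (52.6%), among them HLA-DRA (94.9 kb) and HLA-G (22.5 kb), and 1 of these 10 had a unique window. Of 602 genes known only by an Ensembl identifier 93 were unmarked (15.4%).

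Tissue-restricted genes chosen from textbook knowledge, 111 in 21 tissue lists, were unmarked in 22 cases (19.8%, beside 5.60% of all genes). These lists were drawn up with earlier results of these data known, so differences from all genes may be partly built in. In liver, coagulation factor F9 was 8.72 kb from the nearest peak, and the other 11 liver genes were marked. The islet hormone gene GCG lay 1.48 kb and the pituitary gene FSHB 6.20 kb from a peak. In lens and retina the crystallins CRYAA and CRYGD and the blue opsin OPN1SW lay 1.58, 4.68 and 6.52 kb away. The milk and saliva genes CSN2, HTN1, STATH and CSN3 were unmarked in 4 of 5 cases, at 7.38, 12.5, 12.9 and 27.5 kb, and the enamel genes AMELX and AMBN in 2 of 3, at 1.34 and 1.18 kb. T lymphocyte genes were unmarked in 3 of 6 cases, with the interleukin gene IL2 at 2.00 kb, the co-stimulatory receptor CD28 at 3.79 kb and the interferon gene IFNG at 10.8 kb. The others were the beta-globin gene HBB (14.2 kb), the desmosomal cadherin DSG1 (8.67 kb), the atrial hormone NPPA (1.65 kb), the acrosomal protein ACRV1 (23.9 kb), the oocyte growth factor BMP15 (2.17 kb), and the intestinal genes FABP2 (4.64 kb) and LCT (4.93 kb). H3K27me3 was the nearest mark for 14 of the 22. Of all 111, 58 (52.3%) had H3K27me3 within 1 kb in at least 1 list, beside 35.6% of all genes, and 12 (10.8%) had H3K4me3 in all 6, beside 71.9% of all genes. The exocrine pancreas, thyroid, kidney, lung, B lymphocyte, myeloid, prostate and placental lists held no unmarked gene.

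Unmarked genes were spread over every chromosome and gathered on 3 of them. Chromosome 11 held 166 (12.6% of its genes), chromosome 6 held 117 (11.1%) and chromosome X held 115 (13.4%), against 5.60% of all genes, and the lowest shares were on chromosomes 19 (2.30%), 15 and 16 (2.33% each). Those with a mostly unique window numbered 142 on chromosome 11, 56 on chromosome 6 and 102 on chromosome X. In gene order the 1119 genes made 793 runs, of which 644 were single genes (57.6%). Runs of 5 or more numbered 23 and held 174 genes (15.5%), and 4 runs had 10 genes or more. In 14 of the 23 no gene had a window mostly copied elsewhere in the assembly, a measure taken up below; in the runs of 17 and of 12 genes every gene had one.

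The longest runs were arrays of receptor genes. The first spanned 17 genes from ZNF311 to UBD on chromosome 6 (chr6:28994785-29559732), 14 of them olfactory receptors by symbol, with a median distance of 113 kb to the nearest peak. The second ran for 14 genes from OR4C13 to OR4S2 across the centromere of chromosome 11 (chr11:49952391-55652854), with a median distance of 4.32 kb. The third held 12 genes from KIR3DL3 to GP6 on chromosome 19 (chr19:54724442-55038264), which are the 7 killer cell receptor genes of the natural killer lineage followed by FCAR, NCR1, NLRP7, NLRP2 and the platelet collagen receptor GP6. The fourth, of 10 genes, ran from OR51A4 to HBB on chromosome 11 (chr11:4942831-5229395). Next came OR8K5 to OR8K1 on chromosome 11 (9 genes), SPANXC to SPANXN3 on chromosome X (9 genes of the testis families SPANX and MAGEC), OR13F1 to OR13D1 on chromosome 9 (8 genes), and 3 of the runs of 7 genes, CRISP3 to DEFB112 on chromosome 6, RNLS to ANKRD22 on chromosome 10 and OR51F1 to OR51G2 on chromosome 11. CRISP3 to DEFB112 joined epididymal and testis genes with beta-defensins, and RNLS to ANKRD22 enclosed the acid lipase genes LIPJ, LIPF, LIPK, LIPN and LIPM. Other runs of 5 or 6 held salivary genes (SMR3A to AMBN), the milk genes CSN1S1 and CSN2 with STATH, the sperm surface genes ADAM32, ADAM18 and ADAM2 with IDO1 and IDO2, and 5 genes from CYSLTR1 to GPR174 on chromosome X with a median distance of 185 kb.

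**Figure D3:**
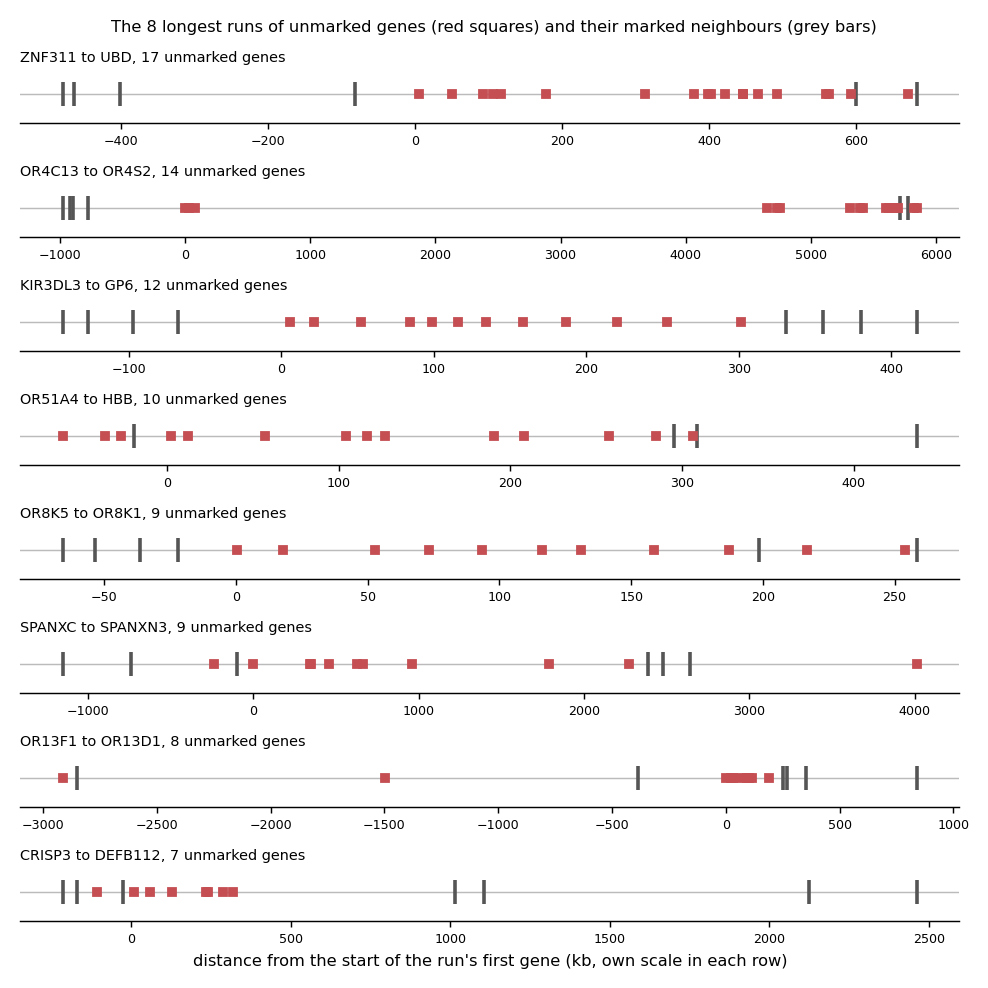
The 8 longest runs of neighbouring unmarked protein-coding genes, each on its own scale in kb from the start of the run's first gene. Red squares are unmarked genes at their midpoints and grey bars are marked genes, with up to 4 further genes drawn on either side; the runs of 17, 14 and 12 genes are the top rows.

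A marked region was usually not far away. The distance from the nearest start to the nearest peak in any list had a median of 4.47 kb (quartiles 2.15 and 10.8 kb), and 819 of the 1119 genes (73.2%) had a peak within 10 kb, where the rule had removed all genes with one within 1 kb. Of the bases of these chromosomes farther than 1 kb from every peak, 66.0% were within 10 kb of one. The chromosome lengths used include assembly gaps, which hold no peaks, so the share over sequenced bases alone would be higher and was not computed. Only 21 genes (1.88%) lay beyond 100 kb. The nearest peak was H3K27me3 for 488 genes (43.6%) and H3K4me1 for 455 (40.7%), followed by H3K27ac for 115, H3K4me2 for 50 and H3K4me3 for 11. Peaks inside the gene body, away from the starts, were found at 524 genes (46.8%) in at least 1 list. H3K4me1 was in the body of 374 genes and H3K27me3 of 330. Neither the nearest mark nor peaks in the gene body were counted for other genes. These shares therefore have no background, and a longer body offers more room for a peak.

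The farthest genes lay in 3 places. RTL3 (chrX:78656068-78659328), derived from a retrotransposon gag gene, was 392 kb from its nearest peak, an H3K27me3 peak, and the lysophosphatidic acid receptor LPAR4 beside it was 383 kb away. P2RY10 (chrX:78945332-78963727), a receptor of lymphocytes, lay 185 kb from H3K27me3 and 762 kb from H3K4me1. On chromosome 6 the olfactory receptors OR14J1 (247 kb), OR2J2 (185 kb), OR12D3 (178 kb), OR12D2 (157 kb) and OR12D1 (138 kb) and the testis gene TSBP1 (139 kb) followed. KIR2DL4 on chromosome 19 came next, at 136 kb. The X-linked genes had 0% of their promoter windows copied elsewhere in the assembly, and the other 7 had between 86.7 and 100% copied.

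Unmarked genes tended to have a CpG-poor start, few annotated starts and a short body, of which the number of starts is not independent of the rule. Their promoters held a median of 3 CG dinucleotides in 300 bases (quartiles 1 and 7), against 24 (12 and 33) in all other protein-coding genes. The ratio of observed to expected CpG had a median of 0.22 against 0.79, and the GC content 45.3% against 64.3%. The surrounding 100 kb differed less, with 40.0% against 44.4% GC. A TATAAA between 50 and 15 bases before the start, on the gene's strand, was found in 9.03% of unmarked promoters and in 3.80% of the others, or 4.09% of all promoters. CACGTG, which is its own reverse complement and the core E-box to which MYC and MYCN bind, was found in 40 (3.57%) against 9.06%, or 8.75% of all. It contains a CG dinucleotide, so this difference is not separate from that in CpG. Promoters of equal CpG content were not compared. Unmarked genes had a median of 1 annotated start against 6, and a median length of 8.56 kb against 29.1 kb. A gene with fewer starts offers fewer windows to the rule: of the 3119 genes with a single start 567 were unmarked (18.2%). Within these the CpG difference was also present, with a median ratio of 0.206 in the unmarked and 0.531 in the other 2552.

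**Figure D4:**
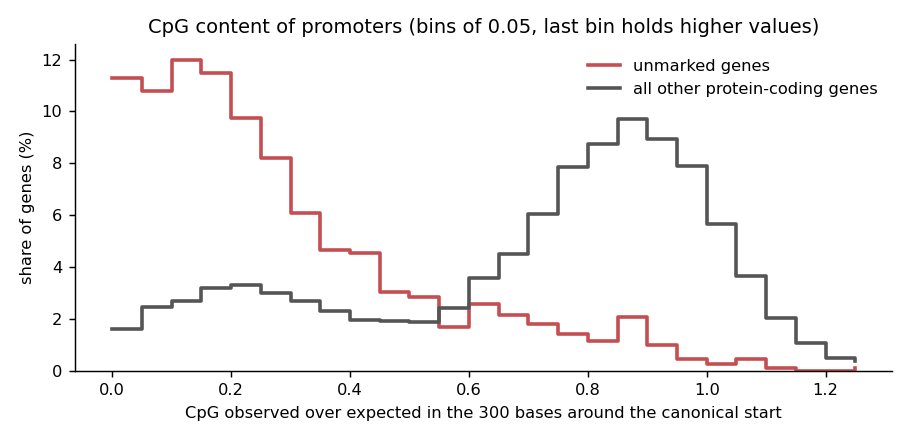
Share of genes (vertical axis, percent) by observed over expected CpG in the 300 bases around the canonical start (horizontal axis) for the 1119 unmarked genes (red) and the other 18851 protein-coding genes (grey). The unmarked genes peak below 0.2, with a median of 0.22, and the others near 0.9, with a median of 0.79.

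A minority of unmarked promoters was CpG-rich. With more than 55% GC and a CpG ratio above 0.65, limits chosen after the data were seen, 85 of the 1119 (7.6%) qualified, beside 62.0% of all other genes. Put the other way, 0.722% of the 11775 CpG-rich promoters were unmarked and 12.6% of the remaining 8195. Of the 85, 75 had a window mostly found once in the assembly, and these lay up to 61.8 kb from a peak, with a median of 4.0 kb. Some of them are known from germ cells, picked here by known role and not counted against a list: TEX12, IHO1 and MEIOSIN serve meiosis, BRDT is a testis bromodomain protein, BOLL an RNA-binding protein of germ cells, MORC1 a repressor of transposons in the male germ line, PDHA2 and SLC25A31 testis forms of a pyruvate dehydrogenase subunit and of the ADP/ATP carrier, and PSMA8 a testis proteasome subunit. BOLL had 29 CG dinucleotides and lay 2.36 kb from a peak, MORC1 23 and 1.89 kb, and SLC25A31 28 and 6.27 kb. Others picked in the same way are used outside the germ line. The gluconeogenic enzyme FBP1 (32 CG dinucleotides, 3.20 kb), the adipose hormone LEP (32, 6.0 kb), the small GTPase RAB32 (45, 12.3 kb), ECRG4 (39, 17.9 kb), the kinase VRK2 (32, 4.75 kb), the imprinted GTPase DIRAS3 (21, 8.37 kb) and the pluripotency-associated zinc finger ZFP42 (24, 4.10 kb) belong here. These genes were named after their values were seen, and DNA methylation was not measured in these files.

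Part of the group lay in sequence that is present more than once in the assembly. The reads had been kept at a mapping quality of at least 30 after alignment to hg38, and the lists hold 52082 peaks on alternative-haplotype sequences beside 2177214 on chromosomes 1 to 22 and X, so those sequences were part of the reference. Of the unmarked genes 214 (19.1%) had at least 50% of the read-length stretches around their starts copied exactly elsewhere in hg38, against 5.34% of the others. Copies on alternative haplotypes affected 160 (14.3% against 3.33%) and copies on the rest of the assembly 69 (6.17% against 2.55%). Of the genes with mostly unique windows 905 of 18750 were unmarked (4.83%), and of those with mostly copied windows 214 of 1220 (17.5%). The major histocompatibility region, from 29 to 33 Mb of chromosome 6, held 55 unmarked genes of 154 (35.7%). Copied windows were found at 54 of these 55 (98.2%) and at 95 of the 99 marked genes (96.0%). With copied windows at 149 of all 154 genes there (96.8%), this comparison had almost no room to show a difference. It therefore cannot tell whether copied windows went with missing peaks within the region. In the first of these megabases 19 of 23 genes were unmarked. Of the families, 13 of the 16 unmarked taste receptors, all 8 unmarked leukocyte and killer cell receptors and 41 of the 153 unmarked olfactory receptors had copied windows, while all 20 protocadherins and all 17 genes with GPR symbols had unique ones. The part of copied sequence in the missing peaks was not tested.

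The number of unmarked promoters per replicate overlapped between treatments. Counting the 5 lists of a replicate together, 1563, 2283 and 2085 genes were unmarked in DMSO replicates 1, 2 and 3, and 1527, 1972 and 2240 in the doxycycline replicates. The groups overlap, with replicate 1 lowest in both. The means were 1977 ± 372 and 1913 ± 360 (SD, n = 3), and the difference of mean log2 counts, doxycycline minus DMSO, was -0.0471 (exact two-sided permutation p = 0.700 over 20 assignments, of which the smallest possible p is 0.1).

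No difference in distance between treatments passed the threshold, which 3 against 3 libraries cannot reach. For H3K27ac the median distance of the 1119 genes was 34.1, 43.7 and 38.3 kb in DMSO replicates 1, 2 and 3 and 47.1, 53.4 and 50.7 kb with doxycycline, so that every doxycycline library lay above every DMSO library. The difference of 0.386 on the log2 scale had the smallest p the design allows (exact permutation p = 0.100, adjusted over 5 marks 0.5). With each list shortened to the same number of peaks it was 0.16 (exact permutation p = 0.100), and with peaks of a −log10 q of at least 3 it was 0.21 and the groups were no longer fully separated (exact permutation p = 0.300). The doxycycline H3K27ac lists were shorter on average, with 48171 to 60292 peaks against 55153 to 71603. For H3K4me1 the medians were 15.1, 32.1 and 18.1 kb in DMSO and 19.6, 39.8 and 28 kb with doxycycline, farther within each replicate number but overlapping between groups (difference 0.436, exact permutation p = 0.400, adjusted 0.667). This difference was 0.0463 with lists of equal length and 0.13 with a −log10 q of at least 3. For H3K4me3 they were 57.2, 59.3 and 60.7 kb and 58.2, 64.4 and 69.3 kb (0.111, exact permutation p = 0.300, adjusted 0.667), also farther with doxycycline in each of the 3 replicate pairs. H3K4me2 gave 27.3, 59.4 and 58.5 kb and 33.5, 61.3 and 47.7 kb (0.0167, exact permutation p = 0.9, adjusted 1.00). H3K27me3 varied most between libraries of a treatment, at 44.3, 111 and 28.1 kb in DMSO and 32, 62.0 and 52.5 kb with doxycycline (-0.137, exact permutation p = 1.00, adjusted 1.00), and the difference was -0.28 with lists of equal length and -0.50 with a −log10 q of at least 3. Its farthest and nearest medians, 111 and 28.1 kb, both came from DMSO libraries with the short fragment estimates of 112 and 105 bases. Without the 3 short-fragment libraries the remaining H3K27me3 medians were 44.3 kb in DMSO and 32 and 62.0 kb with doxycycline.

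**Figure D5:**
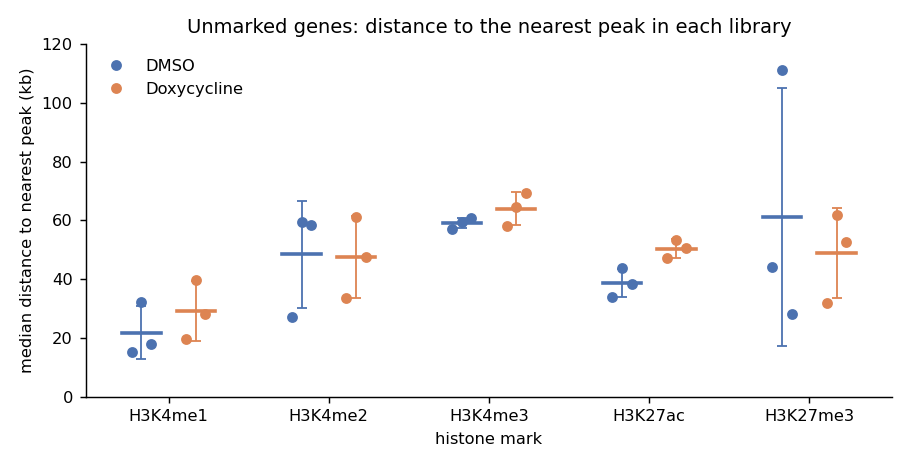
Median distance in kb from the 1119 unmarked genes to the nearest peak of each mark (vertical axis) in each library (points), for DMSO (blue) and doxycycline (orange), with the mean (bar) and SD (line, n = 3). For H3K27ac the doxycycline libraries (47.1 to 53.4 kb) lie above the DMSO libraries (34.1 to 43.7 kb); for the other marks the treatments overlap.

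Few genes passed between the unmarked state and a mark found in all replicates of 1 treatment. Unmarked in all 15 DMSO lists but marked with doxycycline were 230 genes, 152 of them in 1 list only, and 21 genes (0.105%) had a mark in all 3 doxycycline lists. In the reverse direction 292 genes were marked with DMSO only, 196 of them in 1 list, and 14 (0.0701%) had a mark in all 3 DMSO lists. None of these 21 and 14 genes had H3K4me3 or H3K4me2 in all 3 lists of the treatment that marked it. Of the 21, 15 carried H3K27me3 in all 3 doxycycline lists, 5 carried H3K4me1 and 1 carried H3K27ac. Of the 14, 13 carried H3K4me1 and 3 carried H3K27ac in all 3 DMSO lists, and 0 carried H3K27me3. The H3K27me3 libraries with short fragment estimates were DMSO replicates 2 and 3 and doxycycline replicate 3. In DMSO replicate 2 H3K27me3 lay at 22.8% of all genes, the lowest share among its libraries. A call in all 3 lists was therefore not equally open to both treatments, and the part of this in the 15 and 0 was not tested. The most widely marked with doxycycline were SYTL3 and PIRT in 6 lists each, both with H3K4me1 in 3 of 3, the chemokine CCL19 and TMC3 in 4 lists each with H3K27me3 in 3 of 3, and CCNP in 4 lists with H3K27ac in 3 of 3. Those most widely marked with DMSO were LRRC53 and LRTM1, each with H3K4me1 and H3K27ac in 3 of 3, CALCB, the beta form of the calcitonin gene-related peptide, with H3K27ac in 3 of 3 (5 lists), ALDH8A1 and MS4A3, each with H3K4me1 in 3 of 3 (4 lists). These genes were picked by their calls, so their counts are a description without a test.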

How the data were processed

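The ChIP-seq peaks of 5 histone modifications in KELLY were analysed as deposited; 34 samples comprise the 30 lists and 4 inputs, which have no list of their own. Per the file headers and the submitters' notes, the authors aligned reads to hg38 with Bowtie2, kept those with mapping quality of at least 30, and called peaks per library against input with MACS2 2.1.1.20160309, broad for H3K4me1, H3K27ac and H3K27me3 (q 0.05, linked at 0.1) and narrow for H3K4me2 and H3K4me3 (p 1e-05). The deposited columns give pileup signal, −log10 p-value and q-value, and fold enrichment over input; here positions, −log10 q and fold were used. The headers give replicates 1 and 3 of a treatment the same input read total. Lists of these replicates may therefore share a control and not be independent, which the permutation tests do not take into account.

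Genes and starts came from GENCODE 44, and distances were computed in Python 3 with numpy and pandas and tested on simulated data against bedtools. Promoters were read from hg38. Copies are exact 101-base matches, sampled every 25 bases of the windows; alternative haplotypes were aligned with minimap2 (identity of at least 95%, cover of at least 90%). Treatments were compared over libraries by exact permutation, with Benjamini-Hochberg adjustment over 5 marks. The replicate numbers paired the distances of H3K4me2, H3K4me3 and H3K27me3, since deviations of same-numbered libraries correlated at 0.155 or more over the 1119 genes in each pair. This pairing comes from the data, as the labels do not state it.

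Genes were named by rule: the farthest member and the most widely marked members of the 8 families with most unmarked genes, stems with at least 80% unmarked, the 10 farthest genes, the ends of the 10 longest runs, the genes nearest the limit, the tissue lists, and genes marked in all lists of 1 mark in 1 treatment only. The members, families and lists were chosen with earlier results of these data known. Some genes and sequences that the rule selects are not reported here.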

Additional observations from a re-analysis of the deposited data

Results flagged for a closer look

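Peaks on alternative-haplotype sequences were outside the rule, which used chromosomes 1 to 22 and X, and they drew attention as signal in data the comparisons did not use. The starts of 165 unmarked genes aligned to such a sequence, 61 of them on chromosome 6, and 31 of these genes (18.8%) had a peak within 1 kb of the aligned start in at least 1 list. H3K27me3 was there for 28 of the 31, alone for 23, H3K4me1 for 6 and H3K4me2 for 5, and H3K4me3 and H3K27ac for 0. In 10 genes the peak was in a single list. The golgin copies GOLGA8J and GOLGA8H were marked there in 13 lists each, the mucin MUC20 and the class I gene HLA-G in 7 each, the inflammasome-related gene NLRP2 in 6 and its neighbour NLRP7 in 5, the hair gene KRTAP5-5 in 5, and PSMB8 in 4. Library size, depth and copy number on these sequences were not compared. The groups of 3 libraries are too small for a search for outlying samples.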

How the results depend on the processing

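The number of unmarked genes depended most on weak peaks and on H3K27me3: it was 1993 with −log10 q of at least 3 and 2997 without H3K27me3, and it lay between 779 (windows of 2500 bases) and 1657 (a peak needed in 2 of 3 lists) in the other alternatives, including 905 in mostly unique windows and 1088 with alternative-haplotype peaks counted, both chosen after seeing the data. Leaving out a replicate number gave 1172 to 1401. Runs of 5 or more numbered 46 with −log10 q of at least 3 and 15 among genes with unique windows, and 4 when 10 genes were required. The family share was 31.3% among genes with unique windows. The cause of these shifts, beyond fewer lists, peaks or genes, was not tested.

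No comparison of treatments passed the threshold in any alternative, and none could, since the smallest p is 0.1 and with sign flips 0.25. The set counts differed by -0.2075 to 0.1065 on leaving out each set in turn, with the sign turned without DMSO replicate 2 (0.0658), DMSO replicate 3 (0.0003) or doxycycline replicate 1 (0.1065). Leaving out a library moved the distance difference between 0.1809 and 0.7542 for H3K4me1, 0.0513 and 0.1773 for H3K4me3, and 0.2988 and 0.4777 for H3K27ac. The H3K4me2 distance turned with canonical starts only (-0.0104) and with lists of equal length (-0.1223), and ranged from -0.3535 to 0.2467 on leaving out a library (turned without DMSO replicate 1 or doxycycline replicate 2 or 3). The H3K27me3 distance ranged from -0.5784 to 0.4156, turned without DMSO replicate 2 or doxycycline replicate 1. With the replicate block the set difference of -0.0471 had p = 0.750 (exact sign flips), and the distance differences kept their values, 0.4361, 0.0167, 0.1110, 0.3863 and -0.1373 for H3K4me1, H3K4me2, H3K4me3, H3K27ac and H3K27me3, with exact p of 0.250, 0.750, 0.250, 0.250 and 1.00. Same-numbered deviations correlated at 0.0849 to 0.411 for H3K4me1 and -0.0133 to 0.169 for H3K27ac, so the block rests there on the number alone.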
